A study of Mus musculus with 23 samples.

Results

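Medulloblastoma allografts that had become resistant to the Smoothened antagonist NVP-LDE225 were compared between 2 dose groups, 160 mg/kg (3 arrays) and 40 mg/kg (3 arrays), which make up 6 of the 23 arrays of the series. The groups were taken from the sample descriptions, and every probe set that is not a control entered the comparison. The donor mice were Ptch+/-HIC+/-, with 1 copy each of Ptch and HIC disrupted, and dissociated tumour cells were grown under the skin of nude mice, which lack mature T cells but keep the other host cells. All 6 tumours carried this genotype and had received the drug, whose name in the descriptions is LDE225AZ. Vehicle tumours of the same origin (3 arrays, no stated time) served as a common reference level, and the remaining 14 arrays, from tumours collected within 48 h of drug or 4 h of vehicle, entered the estimate of the spread. The labels give neither the time since the last dose nor the duration of treatment. They also do not say whether the 3 arrays of a group are separate animals or share a resistant founder tumour. The p-values here set each difference against a spread pooled over all 23 arrays, not that of the 6 resistant arrays alone. They describe these arrays only.

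In Hedgehog signalling the receptor Ptch1 restrains Smoothened, and release of Smoothened activates the Gli transcription factors, which induce Gli1, Ptch1 and Hhip as feedback targets. Granule neuron progenitors of the cerebellum divide in response to this pathway, and medulloblastoma in Ptch1 mutant mice arises from them. Drugs that bind Smoothened shut the pathway off, and tumours that regrow under treatment can restore it or bypass it.

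Values are MAS5 signals in linear units, as deposited by the authors, with a 2% trimmed mean of 150 on every array. On each of the 6 arrays 40% of the probe sets lay below 22.5 to 26.3 units. Differences are 160 minus 40 mg/kg in log2(signal + 16), with the standard error of the limma fit after ±, and a gene was called at a Benjamini-Hochberg adjusted p under 0.05 over the 35069 probe sets tested. The offset understates the change of dim genes. Granule lineage markers were present in all 6 tumours. Atoh1, the transcription factor that specifies granule neuron progenitors, had signals of 3953, 3816 and 3380 at 160 mg/kg, against 3176, 3747 and 3747 at 40 mg/kg. Zic1, another cerebellar granule cell factor, had 4898, 5177 and 5343 at 160 mg/kg, against 5572, 3796 and 4033 at 40 mg/kg, and neither gene was called.

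The 6 tumours did not fall apart by dose. The root mean square log2 distance between arrays was 0.50 to 0.61 within the 160 mg/kg group, 0.52 to 0.58 within the 40 mg/kg group and 0.54 to 0.63 between the doses. The median within-group variance was 1.56 times the vehicle value at 160 mg/kg and 1.71 times at 40 mg/kg, while the other groups lay between 0.74 and 1.01 times. The 3' to 5' actin log2 ratio, a measure of RNA integrity, averaged 1.26 ± 0.17 at 160 mg/kg and 1.09 ± 0.33 at 40 mg/kg (SD, n = 3 each, exact two-sided permutation p = 0.4, where 0.1 is the smallest possible). The 160 mg/kg array #1 stood apart: 185 of 14980 genes lay more than 1 log2 unit below all other resistant arrays there, against 14 to 54 genes on each of the other 5 arrays. Its summed signal over 28 fibroblast and matrix markers was 11820, with 27830 and 47620 in the other 160 mg/kg tumours, 34950, 43460 and 38720 at 40 mg/kg and 12100 to 20650 in vehicle tumours. Over 26 macrophage and microglia markers the sums were 4658, 10480 and 16770 at 160 mg/kg, against 17920, 15680 and 13180 at 40 mg/kg, with 2617 to 4429 in vehicle tumours. The 160 mg/kg array #3 carried adipocyte genes (summed signal 6228 over 9 markers, 440.4 to 1163 on the other 5 arrays), and the 40 mg/kg array #1 carried skeletal muscle genes (7469 over 23 markers, 1009 to 3206 on the other 5). In bulk tumours, fewer cells of a type and less RNA per cell cannot be told apart.

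**Figure D1:**
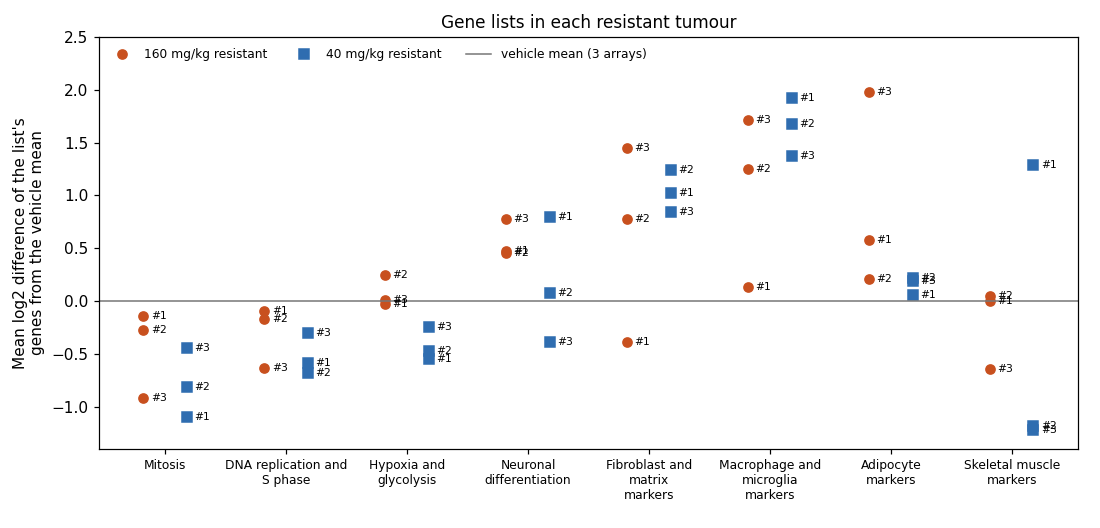
Mean log2 difference of 8 gene lists from the vehicle mean in each resistant tumour, with 160 mg/kg tumours as circles left of 40 mg/kg tumours as squares and the array number beside each point. Fibroblast and macrophage markers were lowest in the 160 mg/kg tumour #1, adipocyte markers highest in the 160 mg/kg tumour #3 and muscle markers highest in the 40 mg/kg tumour #1.

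Between the doses 747 probe sets were called (2.13% of those tested), 474 higher (1.35%) and 273 lower (0.778%) at 160 mg/kg. With each gene represented by its brightest probe set, 419 of 14980 genes were called (2.8%), of which 251 were higher (1.68%) and 168 lower (1.12%) at 160 mg/kg. Several probe sets were tested for 267 of the called genes. In 55 of these every probe set was called the same way, and in 0 a probe set was called the other way. The dose groups did not overlap in 366 of the 419. Over all genes they did not overlap in 5.97% with 160 mg/kg above and 6.32% with 160 mg/kg below. The 419 were picked for a difference between these same groups, so their lack of overlap is not separate evidence. Of the called genes, 104 rose and 79 fell by more than 1 log2 unit, and the median difference of all genes was -0.01. The number of calls depended on the spread assumed for resistant tumours: 354 probe sets passed when the resistant arrays were given a weight of their own (a choice made after seeing the data), and 19 passed when only the 6 resistant arrays entered the fit. Those 19 included 13 named genes, 9 lower (Dcpp3, Sptssb, Ccnd3, Nexmif, Bmp7, Adcy7, Ppp1r14a, Slc35b1 and Cacna1s) and 4 higher (Shisal2b, Spon2, Rflna and Sema3e) at 160 mg/kg. Without the 160 mg/kg array #1 the count was 670, and without the 40 mg/kg array #1 it was 1186.

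Genes that were much dimmer at 160 mg/kg encoded a D-type cyclin, a BMP ligand, secreted gland proteins and enzymes of lipid and cyclic nucleotide metabolism. Ccnd3, the cyclin D3 partner of Cdk4 and Cdk6, had signals of 292, 277 and 238 at 160 mg/kg, against 1158, 1250.1 and 2087 at 40 mg/kg. The vehicle mean was 409 ± 32.2 (SD, n = 3 here and for every vehicle mean given with ±). The 160 mg/kg tumours all lay under it and the 40 mg/kg tumours above it. The difference was -2.36 ± 0.17 log2, adjusted p = 1.50e-08, and both probe sets of the gene were called. Of the other D-type cyclins, Ccnd1 had 4410.3, 3958 and 3070.1 at 160 mg/kg, against 4324, 2912 and 3289 at 40 mg/kg (0.12 ± 0.14 log2, adjusted p = 0.805). Ccnd2 had 113, 248 and 720.2 at 160 mg/kg, against 322, 204 and 208 at 40 mg/kg (0.20 ± 0.37 log2, adjusted p = 0.903). Neither was called.

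Dcpp3, a secreted protein of salivary glands, had signals of 454, 324 and 434 at 160 mg/kg, against 3169.8, 6011 and 3326 at 40 mg/kg (-3.27 ± 0.22 log2, adjusted p = 4.28e-09). The vehicle mean was 633 ± 108. A second probe set shared by Dcpp1, Dcpp2 and Dcpp3 was also among the 19 called in the 6 arrays alone, and signal from these near-identical genes cannot be separated. Bmp7, a bone morphogenetic protein, had 47.4, 19.9 and 34.1 at 160 mg/kg, against 266, 256 and 166 at 40 mg/kg, and the groups did not overlap (-2.31 ± 0.35 log2, adjusted p = 4.23e-04). All 3 of its probe sets were called. The vehicle mean was 39.2 ± 5.75. Sptssb, a small subunit of the serine palmitoyltransferase that begins sphingolipid synthesis, had 1.5, 2.3 and 3.2 at 160 mg/kg, against 119, 206 and 245 at 40 mg/kg. The vehicle mean was 15.3 ± 15.5. Because the 160 mg/kg signals were near the bottom of the arrays' range, the size of the fitted difference (-3.44 ± 0.38 log2, adjusted p = 6.95e-06) depends on the offset.

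Padi4, which converts arginine to citrulline in histones, had 54.6, 30.5 and 66.4 at 160 mg/kg, against 427, 1031 and 260.1 at 40 mg/kg (-2.96 ± 0.35 log2, adjusted p = 1.81e-05) and a vehicle mean of 50.7 ± 6.96. It is also expressed in neutrophils, whose 12 markers summed to 247, 453 and 553 at 160 mg/kg, against 445, 664 and 539.7 at 40 mg/kg. Their part in this result was not tested. Adcy7, an adenylate cyclase that makes cyclic AMP, had 702, 292 and 325 at 160 mg/kg, against 1852, 1423 and 2534 at 40 mg/kg (-2.17 ± 0.27 log2, adjusted p = 3.13e-05), with all 3 probe sets called. Cacna1s, the pore subunit of the skeletal muscle calcium channel, had 2.9, 3.1 and 27.0 at 160 mg/kg, against 292, 119 and 192 at 40 mg/kg (-3.04 ± 0.37 log2, adjusted p = 3.05e-05). The muscle markers summed to 2582, 3206 and 2737 at 160 mg/kg, against 7469, 1009 and 1166 at 40 mg/kg. Their part in the Cacna1s result was not tested. Nexmif, a neurite extension factor, had 34.3, 29.2 and 42.3 at 160 mg/kg, against 192, 187 and 245 at 40 mg/kg (-2.12 ± 0.20 log2, adjusted p = 6.02e-07, 1 of 3 probe sets called). Both resistant groups lay above the vehicle mean of 3.47 ± 1.35, by 1.39 log2 at 160 mg/kg (adjusted p = 0.00118) and 3.52 log2 at 40 mg/kg (adjusted p = 1.08e-10). The remaining large falls were Eva1a, Rab27a, Rab3b, Plce1, Fxyd6, Kcnt1 and Elfn1, from -2.38 to -1.90 log2. Rab27a and Kcnt1 were each called on 1 of 2 probe sets. Rab27a and Rab3b are small GTPases of secretory vesicles, Plce1 is a phospholipase C, Fxyd6 regulates the sodium pump, Kcnt1 is a potassium channel and Elfn1 a synaptic adhesion protein. Rab3b alone among the 15 largest falls lost its call when the resistant arrays had their own weight (adjusted p = 0.0857). Slc35b1, a nucleotide transporter of the endoplasmic reticulum, was bright in every tumour, with 1455, 1888 and 1526 at 160 mg/kg, against 3020.5, 3348 and 3432 at 40 mg/kg (-1.01 ± 0.11 log2, adjusted p = 6.63e-06). It was chosen after its values were seen.

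**Figure D2:**
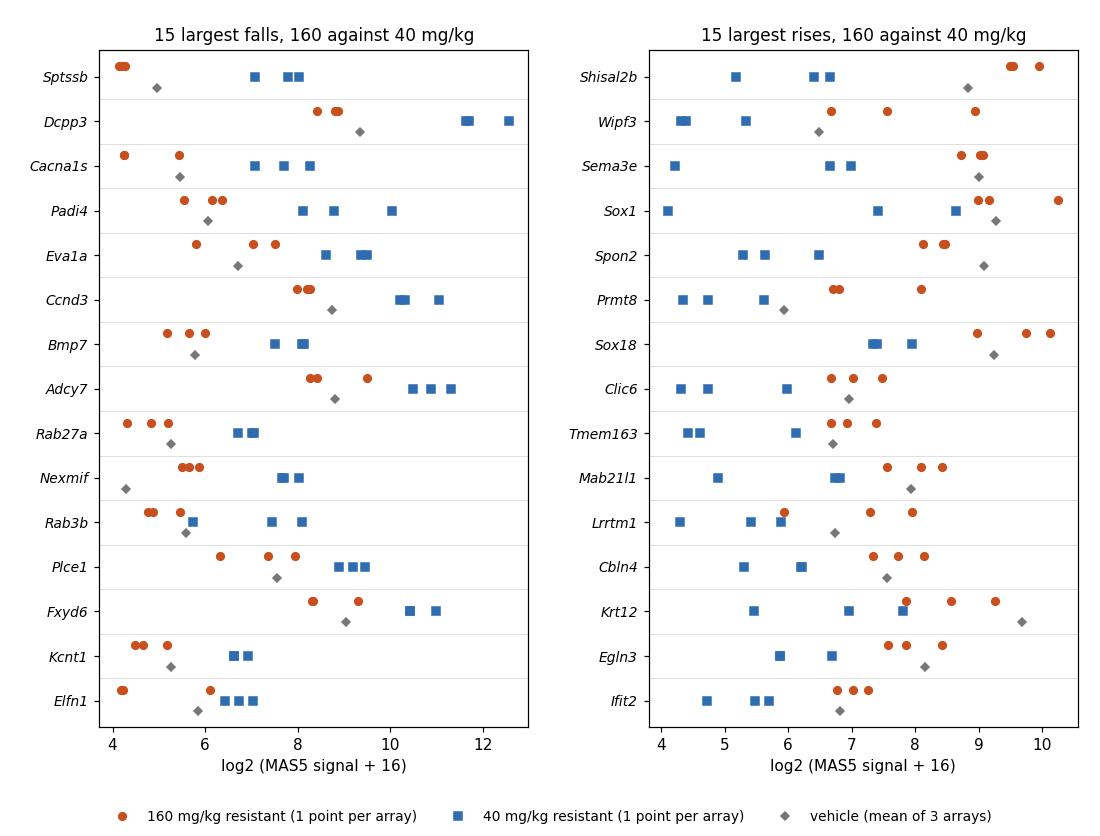
Signals of the 15 largest falls (left) and 15 largest rises (right) in the 160 mg/kg tumours (circles), the 40 mg/kg tumours (squares) and the vehicle mean (diamonds), on a log2 axis of signal plus 16. Genes were chosen for groups that do not overlap; for Ccnd3, Bmp7 and Sema3e the 40 mg/kg tumours lie away from the vehicle mean.

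Genes that were brighter at 160 mg/kg included secreted guidance and matrix proteins, neural transcription factors and synaptic proteins. Shisal2b, a Shisa-like membrane protein, gave the largest rise, with signals of 975, 700.3 and 725 at 160 mg/kg, against 85.2, 68.4 and 20.3 at 40 mg/kg (3.58 ± 0.27 log2, adjusted p = 2.52e-08). Vehicle tumours averaged 437 ± 90.8, above every 40 mg/kg signal. Relative to vehicle, Shisal2b differed by 0.85 log2 at 160 mg/kg (adjusted p = 0.145) and -2.73 log2 at 40 mg/kg (adjusted p = 1.93e-06). Sema3e, a secreted semaphorin that guides axons and vessels through plexin D1, had 517, 501 and 406 at 160 mg/kg, against 84.7, 111 and 2.7 at 40 mg/kg. The vehicle mean was 498 ± 138. The difference between doses was 2.98 ± 0.39 log2, adjusted p = 7.39e-05, and all 4 probe sets were called. Spon2, a secreted matrix protein, had 261, 331 and 338 at 160 mg/kg, against 73.8, 33.9 and 23.2 at 40 mg/kg (2.53 ± 0.22 log2, adjusted p = 2.85e-07, 1 of 2 probe sets called). Neither dose reached the vehicle mean of 527 ± 134.

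Sox1, a transcription factor of neural progenitors, had 1203, 554 and 494 at 160 mg/kg, against 155, 385 and 1.3 at 40 mg/kg (2.74 ± 0.61 log2, adjusted p = 0.0148, 1 of 2 probe sets called). The signal of the 40 mg/kg tumour #3 was at background, and without the 160 mg/kg array #1 Sox1 was not called. Sox18, a transcription factor of endothelial cells, had 1091, 836 and 486 at 160 mg/kg, against 152, 231 and 145 at 40 mg/kg (2.05 ± 0.22 log2, adjusted p = 6.63e-06). The 20 endothelial markers as a list had a median difference of -0.14. Sox18 was the only member called (5%, against 1.68% of all genes called higher). Lrrtm1 and Cbln4, both synaptic organisers, rose by 1.86 and 1.82 log2, and Wipf3, Prmt8, Clic6, Tmem163, Mab21l1, Krt12 and Ifit2 rose by 1.70 to 3.04 log2. Lrrtm1 was called on 1 of 3 probe sets and Clic6 on 1 of 2. Wipf3 binds the actin regulator WASP, Prmt8 is an arginine methyltransferase of the brain, Clic6 is a chloride channel protein, Tmem163 transports zinc, Mab21l1 acts in eye and neural development, Krt12 is a keratin and Ifit2 an interferon-induced protein. Ifit2 was the only called member of 35 interferon response genes (2.86%, against 1.68% of all genes called higher). Rflna, a filamin-binding protein chosen after its values were seen, had 151, 82.4 and 106 at 160 mg/kg, against 14.7, 9 and 2.8 at 40 mg/kg (2.37 ± 0.25 log2, adjusted p = 5.67e-06).

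Gli1, Ptch1, Gli2, Smo, Sufu and Mycn were not called between the doses. In the pathway lists 5 genes were called, among them the feedback target Hhip. Gli1, the transcription factor that reads out the pathway most directly, had 703, 602 and 594 at 160 mg/kg, against 1259, 1269 and 966 at 40 mg/kg. The 3 tumours at 160 mg/kg lay below the 3 at 40 mg/kg, with a vehicle mean of 679 ± 42.2. The difference of -0.86 ± 0.31 log2, adjusted p = 0.21 did not pass. In 18 of 20 alternatives Gli1 was also not called, with an adjusted p of 0.589 when the resistant arrays were weighted separately. It was called in 2, and an offset of 64 in place of 16 gave an adjusted p of 0.0057. Ptch1, the receptor, had 2838, 2092 and 1656 at 160 mg/kg, against 2296, 2885 and 2079 at 40 mg/kg, and the groups overlapped (-0.16 ± 0.15 log2, adjusted p = 0.747). Gli2, the main transcriptional activator, had 1084, 1213 and 1033 at 160 mg/kg, against 1195, 741 and 1189 at 40 mg/kg (0.12 ± 0.14 log2, adjusted p = 0.813). Smo, the drug target, had 414, 507 and 443 at 160 mg/kg, against 501, 478 and 487 at 40 mg/kg (-0.11 ± 0.12 log2, adjusted p = 0.809). Ptch1, Gli2 and Smo thus overlapped between the doses, while Gli1 did not. Sufu, the inhibitor of Gli proteins, had 503, 349.6 and 344 at 160 mg/kg, against 349.8, 297 and 276 at 40 mg/kg (0.34 ± 0.14 log2, adjusted p = 0.271). Mycn, a target that drives granule progenitor division, had 1122, 1165 and 1315 at 160 mg/kg, against 1041, 889.5 and 923 at 40 mg/kg (0.33 ± 0.12 log2, adjusted p = 0.225), and its groups did not overlap.

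Of 19 Hedgehog targets tested, 3 were higher (15.8%, against 1.68% of all genes) and 1 was lower (5.26%, against 1.12%) at 160 mg/kg, with a list median of 0.07. Here and below, lists were chosen with earlier results of these data known, so such shares are descriptive only. Cdk6, a cyclin-dependent kinase that pairs with D-type cyclins, had 2927, 1873 and 1749 at 160 mg/kg, against 789.5, 828 and 459 at 40 mg/kg. All 160 mg/kg tumours were above all 40 mg/kg tumours, the difference was 1.64 ± 0.19 log2, adjusted p = 1.40e-05, and all 3 probe sets were called. Cdk6 thus moved opposite to Ccnd3 in the same tumours. Sfrp1, a secreted Wnt inhibitor induced by Gli proteins, had 492, 969.6 and 1359.6 at 160 mg/kg, against 496, 266 and 181 at 40 mg/kg (1.53 ± 0.27 log2, adjusted p = 0.00189). The groups overlapped, and all 5 probe sets were called. Unlike the other called targets, Sfrp1 was not lower 48 h after drug, with means of 911 in vehicle tumours and 1058 at 48 h. The means were 1798 and 606 for Cdk6, 211 and 13.2 for Hhip, and 892 and 57.1 for Fst. Hhip, the membrane protein that binds Hedgehog ligand, had 170.3, 202 and 70.8 at 160 mg/kg, against 20.6, 100.5 and 35.4 at 40 mg/kg with overlapping groups (1.34 ± 0.35 log2, adjusted p = 0.0422), and 1 of its 4 probe sets was called. It was not called with the resistant arrays weighted separately (adjusted p = 0.119) or without 1 of 4 arrays (#1 and #2 at 160 mg/kg, #1 and #3 at 40 mg/kg). Fst, follistatin, an inhibitor of activins, had 903, 438 and 442 at 160 mg/kg, against 1301, 1249 and 1701 at 40 mg/kg and fell (-1.30 ± 0.20 log2, adjusted p = 4.16e-04). Among 27 pathway components the single call (3.7%, against 1.12% of all genes called lower) was Spop, an adaptor of a ubiquitin ligase for Gli proteins. It had 1304, 1065 and 1027 at 160 mg/kg, against 1232, 1857 and 1949 at 40 mg/kg (-0.54 ± 0.14 log2, adjusted p = 0.0353, 1 of 3 probe sets called). Its adjusted p was 0.113 under separate weights. In 3 of the 19 targets every 160 mg/kg tumour lay below every 40 mg/kg tumour (15.8%, against 6.32% of all genes), and in 2 every one lay above (10.5%, against 5.97%).

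**Figure D3:**
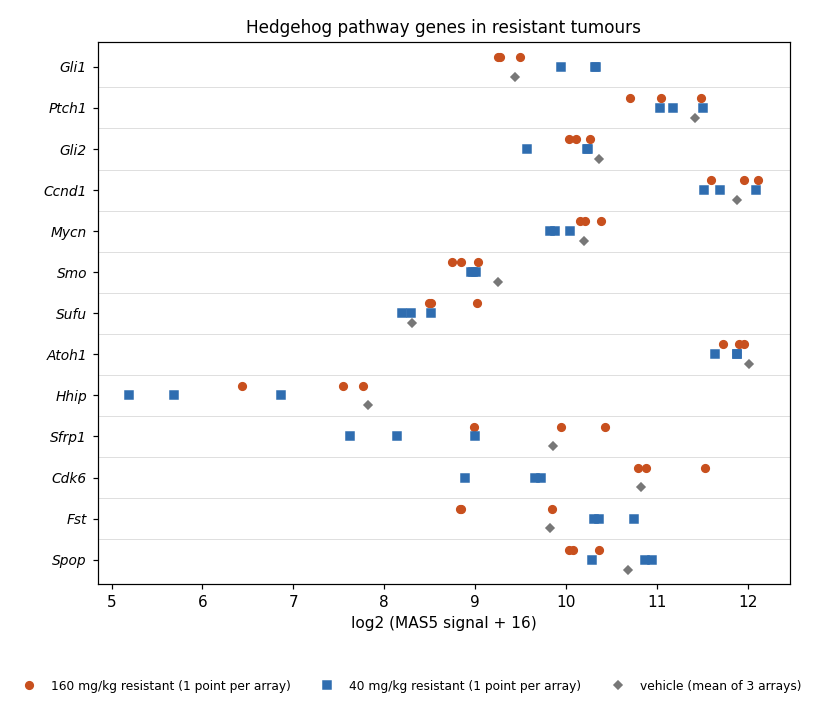
Signals of 13 Hedgehog pathway genes in the 160 mg/kg tumours (circles), the 40 mg/kg tumours (squares) and the vehicle mean (diamonds), on a log2 axis of signal plus 16. Gli1 signals at 160 mg/kg lie near the vehicle mean and below those at 40 mg/kg, Cdk6 shows the reverse order of doses, and Ptch1, Gli2, Ccnd1 and Smo overlap.

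Genes of the granule lineage shifted in both directions. Of 26 granule neuron progenitor genes, 5 were higher (19.2%, against 1.68% of all genes) and 3 lower (11.5%, against 1.12%) at 160 mg/kg. The list median was 0.22, and all 8 were also called with the resistant arrays weighted separately. Id2, an inhibitor of basic helix-loop-helix factors, had 1156, 1322 and 1477 at 160 mg/kg, against 552, 708 and 446 at 40 mg/kg (1.21 ± 0.16 log2, adjusted p = 7.08e-05) and a vehicle mean of 1321. Its relative Id1 ran the other way, with 259, 232 and 199.5 at 160 mg/kg, against 528, 525 and 419 at 40 mg/kg (-1.04 ± 0.16 log2, adjusted p = 4.95e-04) and a vehicle mean of 246. Sox4, a transcription factor of immature neurons, had 3569.6, 2848 and 3762 at 160 mg/kg, against 1976, 2212 and 1299 at 40 mg/kg (0.91 ± 0.14 log2, adjusted p = 4.23e-04, 5 of 6 probe sets called). Sox11, its close relative, had the opposite order, with 1873, 1420.5 and 1527 at 160 mg/kg, against 2788, 1944 and 2539.9 at 40 mg/kg (-0.58 ± 0.13 log2, adjusted p = 0.0111). Meis1, a homeobox factor of granule cells, rose by 0.76 ± 0.12 log2 (adjusted p = 6.52e-04). Barhl1, a homeobox factor of the same lineage, had 298, 413 and 651 at 160 mg/kg, against 265, 155 and 55.0 at 40 mg/kg (1.57 ± 0.29 log2, adjusted p = 0.00324). Lhx1, a cerebellar LIM homeobox factor, rose by 1.22 log2 with overlapping groups (adjusted p = 0.00808). Hes6, which promotes neuronal differentiation by opposing Hes1, fell by 0.64 log2 (adjusted p = 0.00327).

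Of 40 neuronal differentiation genes 4 were higher (10%, against 1.68% of all genes) and 0 lower at 160 mg/kg. The list median was 0.28, with 0.52 without the 40 mg/kg array #1 and 0.05 without the 40 mg/kg array #3. Nfib, a nuclear factor of granule cell maturation, had 4661, 4412 and 4801 at 160 mg/kg, against 3718, 2679.8 and 2947 at 40 mg/kg (0.58 ± 0.11 log2, adjusted p = 0.00388). Elavl4, a neuronal RNA-binding protein, rose by 1.53 ± 0.31 log2 (adjusted p = 0.007). Ncam1, a neural adhesion molecule, rose by 1.27 ± 0.26 log2 with overlapping groups (adjusted p = 0.00755). It was not called without the 40 mg/kg array #2 or #3. Grin2c, a glutamate receptor subunit, rose by 0.57 ± 0.14 log2 (adjusted p = 0.0284). It was not called with the resistant arrays weighted separately (adjusted p = 0.0898). The 40 mg/kg tumours differed from each other: relative to the vehicle mean the list averaged 0.79, 0.08 and -0.39 log2 on arrays #1, #2 and #3, against 0.48, 0.45 and 0.77 at 160 mg/kg. Without the 40 mg/kg array #1, 13 of the 40 genes were called, while the count over all probe sets rose from 747 to 1186. Neurod1, which marks differentiating granule neurons, had 658, 672 and 1569 at 160 mg/kg, against 2393, 776 and 1591 at 40 mg/kg and was not called (-0.69 ± 0.28 log2, adjusted p = 0.298). Glial genes gave 3 calls, all higher at 160 mg/kg, out of 16 astrocyte and glia markers (18.8%, against 1.68% of all genes) with a median of -0.12. Slc1a2 and Slc1a3 take up glutamate, and S100b is a calcium-binding protein of glia. Slc1a2 had 529.7, 608 and 902 at 160 mg/kg, against 396, 125 and 169 at 40 mg/kg (1.62 ± 0.24 log2, adjusted p = 3.41e-04, 1 of 4 probe sets called). Slc1a3 had 171, 272 and 272 at 160 mg/kg, against 64.2, 148 and 42.7 at 40 mg/kg (1.44 ± 0.29 log2, adjusted p = 0.00549). The groups did not overlap in these glutamate transporters. S100b had 2325, 903 and 598 at 160 mg/kg, against 257, 712 and 122 at 40 mg/kg with overlapping groups (1.87 ± 0.39 log2, adjusted p = 0.0086). Mbp, the myelin basic protein, rose by 0.93 ± 0.15 log2 through 1 of 7 probe sets (adjusted p = 6.40e-04), the other called member of 13 oligodendrocyte and Schwann cell markers besides S100b. Together they are 15.4% of that list, against 1.68% of all genes called higher.

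Of 29 genes of receptor tyrosine kinases and MAPK feedback, 2 were higher (6.9%, against 1.68% of all genes) and 3 lower (10.3%, against 1.12%) at 160 mg/kg, with a median of -0.12. The 2 higher genes are receptors, the 3 lower ones are feedback inhibitors, and the other 24 were not called. Egfr, the receptor of epidermal growth factor, had 507, 434 and 439 at 160 mg/kg, against 234, 213 and 122 at 40 mg/kg (1.25 ± 0.15 log2, adjusted p = 2.45e-05), though only 2 of its 6 probe sets were called. Ntrk3, the receptor of neurotrophin 3, had 320.2, 593 and 675 at 160 mg/kg, against 312, 267 and 116 at 40 mg/kg (1.18 ± 0.26 log2, adjusted p = 0.0117, 2 of 7 probe sets). Dusp4 and Dusp6, phosphatases that switch off MAP kinases and are induced by them, were dimmer. Dusp4 had 514, 259 and 210 at 160 mg/kg, against 788, 966 and 629 at 40 mg/kg (-1.32 ± 0.21 log2, adjusted p = 6.04e-04). Dusp6 had 1488, 1309 and 1055 at 160 mg/kg, against 1748, 2165 and 2376 at 40 mg/kg (-0.70 ± 0.12 log2, adjusted p = 0.00189). Spry1, an inhibitor of receptor signalling, had 130, 113 and 179.6 at 160 mg/kg, against 187, 279.5 and 257 at 40 mg/kg (-0.72 ± 0.17 log2, adjusted p = 0.0255). In all 3 the dose groups did not overlap. Among 27 immediate early genes, Ier2 fell by 0.94 and Fosl2 rose by 0.62 log2, with no other call. Each is 3.7% of the list, against 1.12% of all genes lower and 1.68% higher.

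Of 22 Notch genes, Hey1, a transcriptional repressor induced by Notch, had 162, 137 and 148 at 160 mg/kg, against 448, 1732 and 209 at 40 mg/kg (-1.78 ± 0.39 log2, adjusted p = 0.0116), with the highest signal in the 40 mg/kg tumour #2. Hes6 also fell, and Jag1, a Notch ligand, rose (0.75 ± 0.19 log2, adjusted p = 0.0382, 1 of 3 probe sets called). Jag1 was not called with separate weights (adjusted p = 0.163). The Notch list thus had 9.09% lower and 4.55% higher, against 1.12% and 1.68% of all genes. Of 28 Wnt genes, Notum and Znrf3, which are feedback inhibitors induced by Wnt signalling, were lower and Sfrp1 was higher. That is 7.14% lower and 3.57% higher, against 1.12% and 1.68% of all genes. Notum had 24.5, 17.7 and 14.1 at 160 mg/kg, against 120.2, 74.1 and 59.5 at 40 mg/kg (-1.50 ± 0.37 log2, adjusted p = 0.0293). Znrf3 had 149.7, 128 and 95.7 at 160 mg/kg, against 153, 285 and 222 at 40 mg/kg (-0.73 ± 0.19 log2, adjusted p = 0.0477). Neither was called with separate weights (adjusted p = 0.158 and 0.157). Of 27 genes of activin, BMP and transforming growth factor signalling, Bmp7, Fst and Chrd were lower and Tgfb2 higher. These are 11.1% lower and 3.7% higher, against 1.12% and 1.68% of all genes. Chrd, chordin, which binds BMPs outside the cell, had 92.0, 98.8 and 108 at 160 mg/kg, against 227, 193 and 187 at 40 mg/kg (-0.92 ± 0.23 log2, adjusted p = 0.0311). Tgfb2, a transforming growth factor ligand, had 1288, 775 and 689 at 160 mg/kg, against 389, 532 and 648 at 40 mg/kg (0.77 ± 0.20 log2, adjusted p = 0.0422). With separate weights Bmp7 and Fst kept the call (adjusted p = 0.00536 and 0.00205). Chrd and Tgfb2 lost it (adjusted p = 0.172 and 0.131). The falls that kept the call were thus a BMP ligand and an inhibitor of activins.

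Several hypoxia and glycolysis genes were brighter at 160 mg/kg. Of 31 members tested, 7 were higher and 0 lower (22.6% higher, against 1.68% of all genes). A positive difference was seen in 26 (83.9%, against 47.5% of all genes), and all 160 mg/kg tumours lay above all 40 mg/kg tumours in 13 (41.9%, against 5.97% of all genes). The list median was 0.50, with -0.01 for all genes. As the list was chosen with earlier results of these data known, these shares are descriptive only. Egln3 is a prolyl hydroxylase that marks hypoxia-inducible factor for degradation and is itself induced by low oxygen. It had 175, 325 and 215 at 160 mg/kg, against 42.4, 42.4 and 87.3 at 40 mg/kg (1.80 ± 0.33 log2, adjusted p = 0.00299, 1 of 2 probe sets called). Slc2a3, a glucose transporter, had 167, 239 and 178 at 160 mg/kg, against 95.7, 43.9 and 62.1 at 40 mg/kg (1.37 ± 0.23 log2, adjusted p = 9.32e-04). In both genes the groups did not overlap. Ndrg1, a gene induced by low oxygen, had 305, 215 and 366 at 160 mg/kg, against 106, 113 and 99.5 at 40 mg/kg (1.32 ± 0.26 log2, adjusted p = 0.00508, 2 of 5 probe sets called). Pkm, the pyruvate kinase of the last step of glycolysis, had 2821, 3324 and 2982 at 160 mg/kg, against 1976, 2208 and 2001 at 40 mg/kg (0.56 ± 0.13 log2, adjusted p = 0.0237).

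The other called members, chosen after their values were seen, were the glycolytic enzymes Ldha, Aldoa and Tpi1. Ldha, lactate dehydrogenase A, had 3801, 4658 and 3511 at 160 mg/kg, against 2014, 2418 and 2909 at 40 mg/kg (0.71 ± 0.18 log2, adjusted p = 0.0405). Aldoa, aldolase A, had 3812, 5128 and 4744 at 160 mg/kg, against 2982, 2658 and 2860 at 40 mg/kg (0.67 ± 0.17 log2, adjusted p = 0.0353). Tpi1, triosephosphate isomerase, had 1242, 1804 and 1462 at 160 mg/kg, against 824, 817 and 969 at 40 mg/kg (0.77 ± 0.19 log2, adjusted p = 0.0295). The vehicle means were 4629.5 for Ldha, 4683 for Aldoa and 1559 for Tpi1, and every 40 mg/kg tumour lay below them. Bnip3, a mitochondrial protein induced by low oxygen, also did not overlap, with 935, 1129.9 and 749.9 at 160 mg/kg, against 288, 471 and 579.7 at 40 mg/kg. It was not called (1.08 ± 0.37 log2, adjusted p = 0.163). Hif1a itself, the oxygen-regulated factor, had 907, 1145 and 1118 at 160 mg/kg, against 1197, 1376 and 1242 at 40 mg/kg (-0.27 ± 0.11 log2, adjusted p = 0.279). With the resistant arrays weighted separately 3 of the 7 calls remained (Egln3, Slc2a3 and Ndrg1), and with 1 array left out 3 to 6 members were called. The vehicle tumours themselves ranged widely, with summed list signals of 20730 to 36000, against 24230 to 29790 at 160 mg/kg and 16560 to 19170 at 40 mg/kg.

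Hypoxia-inducible factors bind the letters ACGTG or GCGTG, and promoters of 3 called members, chosen to span the number of matches, are shown because these genes rose together. The RefSeq table (build GRCm38.p6) held starts for 5 of the 7 called genes. The 250 bases before the start are printed 5′ to 3′ in lower case, with each occurrence of either motif on either strand in capitals. Ldha lies on the plus strand, with its first listed start preceded by chr7:46845554-46845803, Egln3 on the minus strand (chr12:54203875-54204124) and Tpi1 on the minus strand (chr6:124814159-124814408).
Ldha: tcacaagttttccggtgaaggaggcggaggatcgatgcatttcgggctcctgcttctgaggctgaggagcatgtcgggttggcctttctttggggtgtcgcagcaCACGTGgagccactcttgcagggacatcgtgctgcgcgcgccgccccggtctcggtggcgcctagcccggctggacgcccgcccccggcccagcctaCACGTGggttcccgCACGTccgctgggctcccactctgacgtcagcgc
Egln3: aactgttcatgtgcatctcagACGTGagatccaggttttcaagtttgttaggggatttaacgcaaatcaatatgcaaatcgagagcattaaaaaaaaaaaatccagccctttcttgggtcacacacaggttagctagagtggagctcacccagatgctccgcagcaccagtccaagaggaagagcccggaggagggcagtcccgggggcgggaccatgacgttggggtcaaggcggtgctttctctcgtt
Tpi1: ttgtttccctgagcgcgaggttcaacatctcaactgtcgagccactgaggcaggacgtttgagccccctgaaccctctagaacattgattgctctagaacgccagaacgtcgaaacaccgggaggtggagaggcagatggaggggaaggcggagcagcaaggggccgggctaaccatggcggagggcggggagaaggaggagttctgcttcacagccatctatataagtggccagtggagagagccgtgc
The first Ldha window held 5 matches, where CACGTG counts on both strands because it reads as ACGTG on each. The Egln3 window held 1 match and the Tpi1 window 0. Over all listed starts, 6 of 9 windows of the called genes held a match, against 24 of 30 windows of the other tested members and 38.6% of all 32841 windows.

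**Figure D4:**
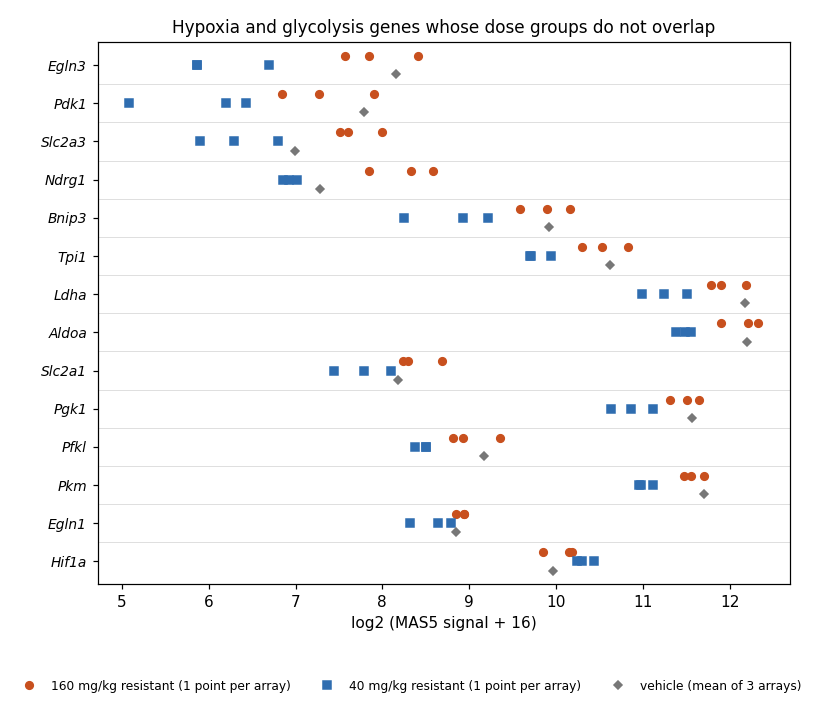
Signals of the 14 hypoxia and glycolysis genes whose dose groups do not overlap, in the 160 mg/kg tumours (circles), the 40 mg/kg tumours (squares) and the vehicle mean (diamonds), on a log2 axis of signal plus 16. In 13 genes the 160 mg/kg tumours lie above the 40 mg/kg tumours, and Hif1a shows the reverse order.

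Cell division genes had positive differences that mostly did not pass the test. All 50 mitosis genes tested had a positive difference, against 47.5% of all genes, with a median of 0.37 (range 0.01 to 0.61). Only Bub3, a spindle checkpoint protein, was called (0.46 ± 0.11 log2, adjusted p = 0.029, 1 of 5 probe sets). That is 2% of the list, near the 1.68% of all genes called higher. Relative to the vehicle mean the list averaged -0.14, -0.27 and -0.92 log2 in the 160 mg/kg tumours and -1.10, -0.82 and -0.45 in the 40 mg/kg tumours, so the groups overlapped. Without the 160 mg/kg array #3 the count was 17 of 50, and without either of the other 160 mg/kg arrays it was 0. Over all probe sets the count without array #3 was 989, against 747 with every array. Mki67, a marker of dividing cells, had 5002, 4344 and 3186 at 160 mg/kg, against 2455, 2858 and 3900.2 at 40 mg/kg (0.44 ± 0.17 log2, adjusted p = 0.229). Of 44 DNA replication genes 34 had a positive difference (median 0.25) and 0 were called by limma (14 at an unadjusted p under 0.05). Of all 35069 probe sets tested, 4235 had an unadjusted p under 0.05. Mcm4, a subunit of the replicative helicase, had 1596, 1402 and 945 at 160 mg/kg, against 678, 741 and 1192 at 40 mg/kg (0.60 ± 0.17 log2, adjusted p = 0.0717). In this list 10 members were called without the 160 mg/kg array #3.

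Several pathways connected with drug resistance showed no call between the doses. Of 35 genes of PI3K and insulin-like growth factor signalling 0 were called in limma (6 at an unadjusted p under 0.05, median -0.06), and 3 were called without the 160 mg/kg array #3. Of all 35069 probe sets, 4235 had an unadjusted p under 0.05, and 989 were called without that array. Igf1, a growth factor that activates PI3K, had 113, 221 and 495 at 160 mg/kg, against 339, 338 and 382 at 40 mg/kg (-0.56 ± 0.31 log2, adjusted p = 0.505). Set against the vehicle mean of 62.8 ± 12.4, it differed by 1.68 log2 at 160 mg/kg (adjusted p = 0.00825) and 2.24 log2 at 40 mg/kg (adjusted p = 7.99e-05). Tumours 48 h after drug averaged 1384 ± 263 (SD, n = 3), above every resistant tumour. The fibroblast marker sums were 11820, 27830 and 47620 at 160 mg/kg, against 34950, 43460 and 38720 at 40 mg/kg. Their part in the Igf1 result was not tested. Igf1r, its receptor, had 579, 805 and 834 at 160 mg/kg, against 866, 813 and 964 at 40 mg/kg (-0.26 ± 0.12 log2, adjusted p = 0.403). The PI3K regulatory subunits Pik3r1 and Pik3r3 differed by 0.21 and -0.24 log2 (adjusted p = 0.502 and 0.445). Of 29 genes of drug efflux and xenobiotic handling 0 were called (2 unadjusted, median -0.04). The multidrug transporters Abcb1a, Abcb1b and Abcg2 differed by -0.08, 0.31 and 0.01 log2, each with a standard error of 0.26 to 0.33, and the sign of Abcb1a and Abcg2 changed in several alternatives. The 19 tested neighbours of Gli2 on chromosome 1 had 1 call (5.26%, against 1.68% of all genes called higher). It was Dbi, the acyl-CoA binding protein (0.59 ± 0.13 log2, adjusted p = 0.012, 1 of 4 probe sets). The 14 genes listed around Ccnd1, on chromosome 7 except Cpt1a and Ighmbp2 on chromosome 19, had 0 calls (2 unadjusted).

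Amino acid, iron and lipid genes gave few calls. Psat1, an enzyme of serine synthesis, had 1168, 1032 and 849.8 at 160 mg/kg, against 537, 587 and 773 at 40 mg/kg (0.68 ± 0.13 log2, adjusted p = 0.00406). Slc7a5, a transporter of large neutral amino acids, rose by 0.87 ± 0.23 log2 (adjusted p = 0.0422). These were the 2 called members of 21 genes of serine, folate and amino acid stress (9.52%, against 1.68% of all genes called higher). Tfrc, the transferrin receptor that imports iron, had 916, 760.1 and 499 at 160 mg/kg, against 359.5, 436 and 368 at 40 mg/kg (0.84 ± 0.16 log2, adjusted p = 0.00468, 1 of 3 probe sets called). It was the only call among 20 iron and heme genes (5%, against 1.68% of all genes called higher). Of 27 cholesterol and fatty acid synthesis genes 0 were called, although 20 had a positive difference (median 0.25). An unadjusted p under 0.05 was found in 12 of them, and in 4235 of all 35069 probe sets. Scd1, which desaturates fatty acids and is also strongly expressed in adipocytes, had 819, 357 and 4712 at 160 mg/kg, against 115, 202 and 300.1 at 40 mg/kg, and the high signal came from the tumour with adipocyte genes. Trp53inp1, a p53 target, fell (-0.77 ± 0.17 log2, adjusted p = 0.0132), with its highest signal in the 40 mg/kg tumour #2. It was the only call among 29 p53 and apoptosis genes (3.45%, against 1.12% of all genes called lower). Bag3, a co-chaperone, rose by 0.73 log2 (adjusted p = 0.0218) as the only call among 30 stress response genes (3.33%, against 1.68% of all genes called higher).

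Markers of macrophages, fibroblasts and antigen presentation were dimmer at 160 mg/kg on average, and the shift was smaller without array #1. All 26 macrophage and microglia markers had a negative difference (median -0.68), as did 52.5% of all genes. Only Ms4a7, a macrophage surface protein, was called (-0.81 ± 0.21 log2, adjusted p = 0.0472), which is 3.85% of the list, against 1.12% of all genes called lower. The list median was -0.18 without the 160 mg/kg array #1. The 28 fibroblast and matrix markers had a median of -0.43 with 0 called (8 unadjusted), and -0.01 without that array. Postn, a matrix protein of fibroblasts, had 694, 2376 and 3367 at 160 mg/kg, against 4244, 4179 and 3845 at 40 mg/kg (-1.20 ± 0.42 log2, adjusted p = 0.185). Antigen presentation genes had a median of -0.55 with 0 of 17 called (5 unadjusted), and -0.11 without that array. Without the 160 mg/kg array #3 instead, 9 macrophage markers, 8 fibroblast markers and 2 antigen presentation genes were called. The count over all probe sets then rose from 747 to 989. Of all 35069 probe sets, 4235 had an unadjusted p under 0.05 with every array in the fit. No call was made among 9 adipocyte, 13 pericyte and smooth muscle, 12 neutrophil, 15 lymphocyte and natural killer, 4 mast cell and eosinophil, 11 skin and 7 erythroid markers, with 0 to 3 members of each at an unadjusted p under 0.05. Pvalb, parvalbumin, was the only called muscle marker of 23 (4.35%, against 1.68% of all genes called higher). It had 742, 1206 and 1371 at 160 mg/kg, against 763, 199 and 293 at 40 mg/kg (1.55 ± 0.28 log2, adjusted p = 0.00296). The summed muscle signal was highest in the 40 mg/kg tumour #1, and the part of muscle tissue in the Pvalb result was not tested.

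Over all 35069 probe sets, 4235 had an unadjusted p under 0.05. The remaining lists had 0 calls by limma. They were 33 ribosome biogenesis genes (2 at an unadjusted p under 0.05), 30 of oxidative phosphorylation (3), 18 ribosomal proteins (0), 26 of chromatin and DNA methylation (7), 20 of lipid efflux (5), 22 metalloproteinases and inhibitors (5) and 28 chemokines and cytokines (4).

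**Figure D5:**
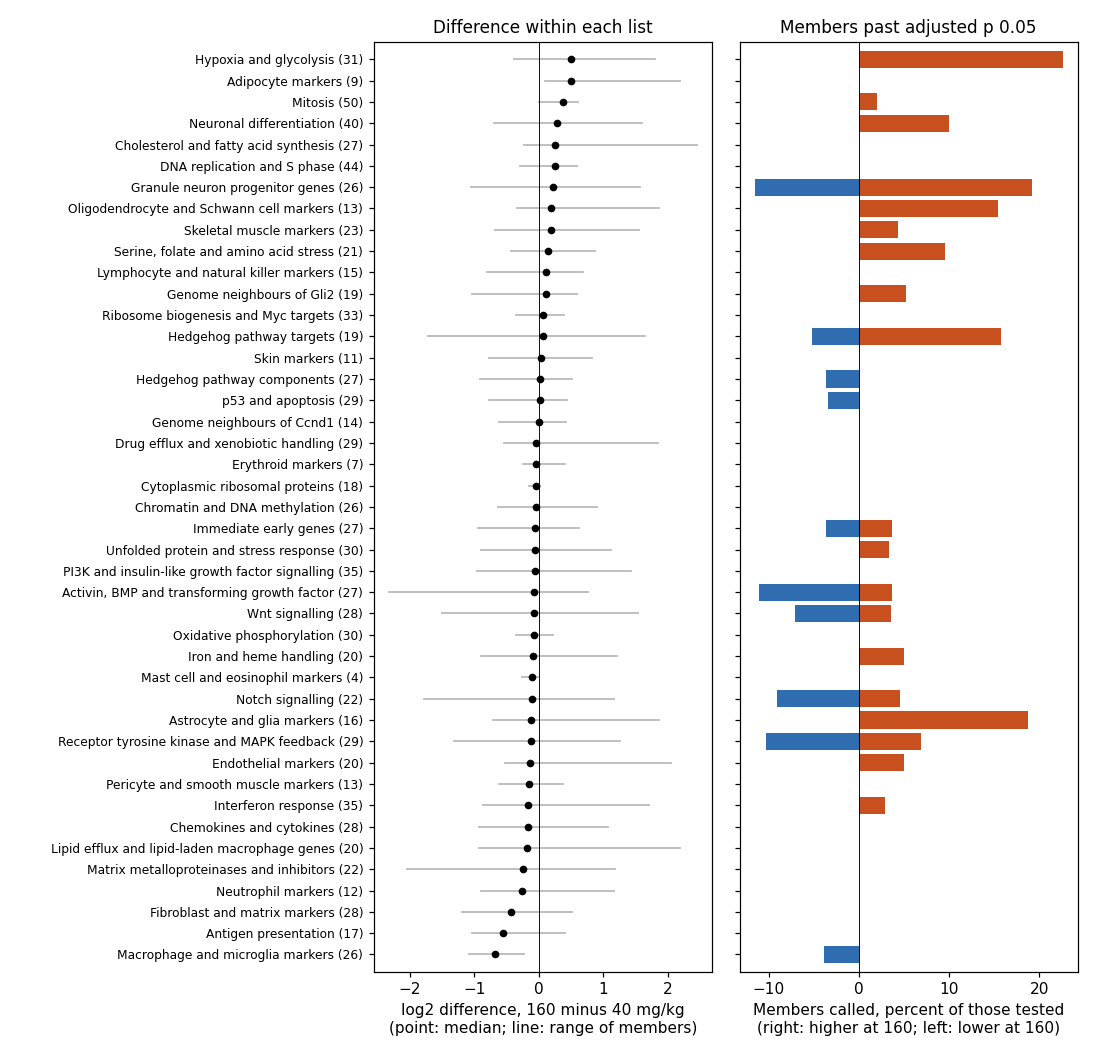
For each of 43 gene lists (tested members in brackets), the median and range of the log2 difference, 160 minus 40 mg/kg (left), and the percentage of members called higher to the right or lower to the left (right panel). Hypoxia and glycolysis has the highest median, 0.50, and macrophage and microglia markers the lowest, -0.68.

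Set against the same 3 vehicle arrays, 355 probe sets (1.01%) and 216 genes (1.44%) were called at 160 mg/kg, and 2495 probe sets (7.11%) and 1474 genes (9.84%) at 40 mg/kg. Both comparisons and the one between the doses share arrays, so their values are only set side by side. At 160 mg/kg 282 were higher and 73 lower than vehicle, and at 40 mg/kg 1342 were higher and 1153 lower. The 160 mg/kg count rested on single arrays: it was 950 without array #1 and 45 without array #3, while the 40 mg/kg count stayed between 1835 and 2921 with any resistant array left out. Bmp7 differed from vehicle by -0.18 log2 at 160 mg/kg (adjusted p = 0.878) and 2.13 log2 at 40 mg/kg (adjusted p = 4.99e-04). Cdk6 differed from vehicle by 0.26 log2 at 160 mg/kg (adjusted p = 0.592) and -1.38 log2 at 40 mg/kg (adjusted p = 7.53e-05). For these genes, and for Egfr, Padi4 and Sema3e, the call against vehicle was made at 40 mg/kg and not at 160 mg/kg. The value for Egfr was -0.35 log2 at 160 mg/kg (adjusted p = 0.302) and -1.61 log2 at 40 mg/kg (adjusted p = 8.96e-07). That for Padi4 was -0.04 log2 at 160 mg/kg (adjusted p = 0.978) and 2.92 log2 at 40 mg/kg (adjusted p = 1.92e-05), and that for Sema3e was -0.04 log2 at 160 mg/kg (adjusted p = 0.979) and -3.02 log2 at 40 mg/kg (adjusted p = 4.00e-05).

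Single tumours carried large differences of their own. Ccdc138, a centrosomal protein gene, had a signal of 42.5 in the 160 mg/kg tumour #2 and of 2296 to 2768 in the other 5, a gap of 5.31 log2 units (2447 in vehicle tumours and 28.1 in tumours 48 h after drug, on average). Vgll2, a cofactor of TEAD transcription factors, had 4467 in the 40 mg/kg tumour #3 and 4.4 to 125 elsewhere, and Dscam, a neural adhesion molecule, had 2125 there against at most 437 elsewhere. Gria2, a glutamate receptor subunit, had 119 there against 626 to 1648 elsewhere. Xist, a gene of the X chromosome, had 12.4 there against 249 to 1050 elsewhere, with a vehicle mean of 304. The reason was not tested. Chia1, a chitinase, had 455 in the 160 mg/kg tumour #1 and at most 8.2 elsewhere, and Fgd6, an exchange factor of Cdc42, had 2894 there against 90.3 to 534 elsewhere. In the 40 mg/kg tumour #2, Nr5a2, a nuclear receptor, had 393 against 14.4 to 41.5 elsewhere, and Fgf7, a fibroblast growth factor, had 949.6 against 28.5 to 180.3. Pou3f3, a neural transcription factor, had 259 in the 160 mg/kg tumour #2 against 3.8 to 23.8 elsewhere.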

How the data were processed

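Gene expression of 23 tumour samples was measured on Affymetrix mouse arrays, named Mouse Genome 430A 2.0 by the submitters, although the 45101 probe sets are those of the larger, whole-genome version. The authors deposited MAS5 intensity values (per the submitters' processing notes, version not given); the 2% trimmed mean is 150 on every array. Detection calls are not used here. The 64 control probe sets were left out, and the test covered the 35069 probe sets with a signal over the 40th percentile on 2 or more arrays. Of all probe sets, 34958 have 1 gene symbol, 932 several and 9211 none. A gene is its probe set with the highest mean; 14980 were tested.

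Differences of log2(signal + 16) were tested in limma 3.58.1 (R 4.3.3), with a mean for each of 8 groups over all 23 arrays and eBayes with trend (15 residual degrees of freedom). The fit was also run on simulated data with the same spread in every group. That check does not cover the wider spread of the resistant groups. The 43 lists are described by counts and medians, with no set test. The members and lists were chosen with earlier results of these data known. Genes named are a fixed set of Hedgehog, cyclin, PI3K and transporter genes, the 15 largest called rises and falls whose groups do not overlap, up to 4 called members of each list or its 2 largest differences where none was called, and the genes furthest from the other arrays in each tumour. Aldoa, Ldha, Tpi1, Bnip3, Hif1a, Lhx1, Sox11, Spry1, Slc35b1, Rflna and Ppp1r14a were added after their values were seen. Alternatives changed the offset, filter, normalization, trend, arrays in the fit, replicate block and weights, or left out 1 array. The number of arrays limits the precision.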

Additional observations from a re-analysis of the deposited data

How the results depend on the processing

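The 747 probe sets called between the doses (474 higher, 273 lower at 160 mg/kg) stayed between 656 and 806 with offsets of 1 or 64, another filter or none, quantile or median normalization, array weights, or a replicate block over all 23 arrays. The count was 491 (297 higher) without the trend, and 354 (235 higher, 119 lower) with a weight of their own for the resistant arrays, a choice made after seeing the data. It was 128 (66 higher, 62 lower) with the resistant and vehicle arrays, and 19 (4 higher, 15 lower) with the 6 resistant arrays, where 2447 probe sets had an unadjusted p under 0.05. Fewer arrays enter those fits. With 1 array left out it was 532 to 1186 (325 to 774 higher, 207 to 451 lower). Against vehicle the 160 mg/kg count was 123 without the trend, 6 with the resistant and vehicle arrays (where the 40 mg/kg count was 712) and 45 to 950 with 1 array left out. The cause of these shifts was not tested.

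Replicate numbers did not pair the samples, since same-numbered deviations correlated at 0.02, 0.03 and -0.10. A replicate block gave 690 calls over all arrays and 6 (2 higher, 4 lower) over the 6 resistant arrays. Of 73 called genes from the fixed set, the largest rises and falls and the lists, 57 kept the call with the separate weight. The call held in all 20 alternatives for 3 (Shisal2b, Sptssb and Dcpp3), and none of the 73 changed sign. Called genes added after their values were seen, or named only for single tumours, are not among the 73.

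With 1 array left out, the called members numbered 0 to 1 for Hedgehog components, stress response, chemokines, adipocyte and skin markers; 0 to 2 for antigen presentation, oxidative phosphorylation and chromatin; and 0 to 3 for PI3K, p53, lipid efflux and metalloproteinases. They numbered 0 to 6 for cholesterol synthesis, 0 to 8 for fibroblast, 0 to 9 for macrophage markers, 0 to 10 for DNA replication and 0 to 17 for mitosis. The range was 1 to 2 for immediate early, interferon and iron genes, 1 to 3 for serine metabolism and oligodendrocyte markers, 1 to 4 for Wnt, 2 to 4 for activin and BMP and 2 to 5 for glia. It was 3 to 5 for receptor tyrosine kinases, 3 to 6 for hypoxia and 3 to 13 for neuronal differentiation. Medians ranged over -0.14 to 0.052 for p53, 0.032 to 0.26 for serine metabolism and -0.12 to 0.069 for glia. Wider ranges were -0.37 to 0.995 for skeletal muscle, 0.089 to 0.96 for adipocyte, -0.87 to -0.0096 for fibroblast and -1.01 to -0.18 for macrophage markers. Over all probe sets the count with 1 array left out ran from 532 to 1186. Quantile normalization gave 1 call in cholesterol synthesis, chromatin and lipid efflux and 2 in iron handling.

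Among the genes followed through the alternatives, only genes that were not called changed sign. With 1 array left out the log2 difference ranged over -0.36 to 0.024 for Ptch1, -0.10 to 0.23 for Gli2, -0.42 to 0.051 for Gli3, -0.00039 to 0.28 for Ccnd1, -0.47 to 0.79 for Ccnd2, -0.015 to 0.13 for Atoh1, -0.38 to 0.13 for Abcb1a and -0.51 to 0.47 for Abcg2. It ranged over -0.12 to 1.19 for Alas2, -0.083 to 0.88 for Car2, -0.12 to 0.72 for Ano1, -0.21 to 0.026 for Tpsab1 and -0.17 to 0.0047 for Rps4x. Abcg2 was also -0.028 with an offset of 1 and -0.054 with array weights.

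With 3 arrays a group, differences in single genes that are small beside the spread between resistant tumours could not be detected, and signals below about the 40th percentile have no reliable order.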

Other observations

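Chromosome 18 stood apart in some resistant tumours when the median log2 difference from the vehicle mean was taken over 149 of its genes. It was 0.02, -0.13 and -0.06 in the 160 mg/kg tumours and -0.08, -0.31 and 0.02 in the 40 mg/kg tumours. Over the other chromosomes the medians of the 160 mg/kg tumour #2 ran from -0.08 to 0.05 and those of the 40 mg/kg tumour #2 from -0.08 to 0.04. Vehicle tumours, each taken against the mean of the other vehicle tumours, had -0.04 to 0.03 on chromosome 18. The 4 h vehicle tumours had -0.22 and -0.19, and all tumours 4 to 48 h after drug lay between -0.31 and -0.12. In the 48 h tumours #1 and #4 (-0.262 and -0.302) other chromosomes reached lower, to -0.325 and -0.342. In the 48 h tumour #3 (-0.305) the others reached only -0.21. Copy number was not measured.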
